A study of Mus musculus with 8 samples.

Results

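The genes described here are the nuclear genes for the subunits of the oxidative phosphorylation machinery, complexes I to V, together with cytochrome c. They were taken by symbol: Nduf followed by a, b, c, s or v and a digit, the 4 Sdh genes, all symbols beginning with Uqcr, Cox4 to Cox8 or Atp5, and Cyc1 and Cycs, without names marked as pseudogenes. The rule found 87 of the 22609 genes in the count files and used no measured value. By known function, 35 of them belong to complex I, 4 to complex II, 9 to complex III, 20 to complex IV and 15 to complex V, and 1 is cytochrome c. The remaining 3, Atp5s, Atp5sl and Cox4nb, matched the rule by name but do not encode subunits of these complexes.

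RNA was sequenced from T cells of the liver that carried CD8α. The 4 CD11c+ libraries came from cells positive for CD11c, the integrin chain encoded by Itgax and best known from dendritic cells, and the 4 CD11c- libraries from cells negative for it. Both subsets came from male C57BL/6J mice of 6 weeks that received an agonist antibody to CD137, a costimulatory receptor of activated T cells, on days 0, 3 and 6, with livers taken on day 8, so no library here comes from an untreated mouse. Both were sorted as live KLRG1+ CD127- cells, the surface profile of short-lived effector T cells, positive for CD45, TCRβ and CD8α and negative for MHCII, NK1.1 and CD4, and they differ by label only in CD11c. The labels do not say that the libraries came from separate mice, so the p-values measure the spread between these libraries, which may be technical.

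Oxidative phosphorylation couples the oxidation of NADH and succinate to ATP synthesis at the inner mitochondrial membrane. Complexes I and II pass electrons to quinone, complex III passes them to cytochrome c, complex IV reduces oxygen, and complex V makes ATP from the proton gradient that complexes I, III and IV build. Most subunits are encoded in the nucleus and a few in mitochondrial DNA, and in T cells the balance between this route and glycolysis is known to shift with activation and memory formation. Several subunits exist in general and tissue-restricted forms, and many have processed pseudogene copies elsewhere in the genome, which bears on how short reads from them can be assigned.

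Gene reads per library ranged from 5090345 to 7093163, and detected genes from 10482 to 12581. Itgax, which the sort was made on, lay between 198 and 357 CPM in CD11c+ libraries and between 4.76 and 18.0 CPM in CD11c- libraries, where CPM is reads per 1000000 gene reads after TMM scaling of library size. The summed level of 8 T cell markers, some of which the sort used, was 8566 to 10161 CPM in CD11c+ libraries and 8784 to 9442 CPM in CD11c- libraries. Summed hepatocyte markers reached at most 21.8 CPM in CD11c+ libraries and 26.3 CPM in CD11c- libraries, and 5 of 6 erythroid markers had no read. Monocyte, macrophage and neutrophil markers summed to 94.8 to 617 CPM in CD11c+ libraries and 93.8 to 302 CPM in CD11c- libraries, with the highest sum in CD11c+ replicate 3, where Lyz2 alone stood at 265 CPM. Dendritic cell markers summed to 4.37 to 10.7 CPM in CD11c+ libraries and 0 to 4.40 CPM in CD11c- libraries, and markers of NK cells and ILC1 to 11.5 to 82.1 CPM in CD11c+ libraries and 6.31 to 37.8 CPM in CD11c- libraries. Both sums averaged higher in CD11c+ libraries and were highest in CD11c+ replicate 3. In that library the NK cell and ILC1 sum was mostly Tyrobp, at 55.2 CPM, and Fcer1g, at 22.6 CPM. The other markers of that list stood at 1.78 CPM for Ncr1 and Klra9, 0.713 CPM for Klrb1c and 0 for Klra8. Klrb1c was highest in CD11c+ replicate 1, at 8.99 CPM, and averaged 3.21 CPM in CD11c+ libraries and 1.07 CPM in CD11c- libraries. Of the dendritic cell markers, Xcr1 averaged 3.51 CPM in CD11c+ libraries and 1.01 CPM in CD11c- libraries. Zbtb46 went the other way, at 1.21 CPM in CD11c+ libraries and 1.60 CPM in CD11c- libraries. Flt3 had reads only in CD11c+ replicate 3, at 4.99 CPM. Clec9a, Siglech and Batf3 averaged at most 0.451 CPM in either subset. The part of both sums in the results below was not tested. CD11c+ replicates 1 and 2 and CD11c- replicate 1 had the fewest detected genes, from 10482 to 10892.

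No nuclear subunit gene passed the test for a difference between CD11c+ and CD11c- cells, and most had slightly lower average levels in CD11c+ libraries. Of the 87 genes, 77 passed the filter on low counts and were tested, and 0 had an adjusted p under 0.05 by edgeR's quasi-likelihood test, where 5 of all 10073 tested genes, 0.0496%, were called. At an unadjusted p under 0.05 the count was 1 of 77, beside 4.7% of all tested genes. DESeq2 also called 0 of these genes, beside 0.461% of the 6947 genes to which it gave an adjusted p. Of the 29 members named by the rule given below, it gave none to Cycs, Cox7c, Atp5g1 and Atp5l, which it thus could not call. Atp5s, outside that rule, had fewer reads than Atp5g1, 231 against 316, so this list may not be complete. Limma with voom quality weights called 0 of the 77, beside 0.189% of all tested genes. The median log2 fold change of the 77 genes, CD11c+ minus CD11c-, was -0.065, against 0.011 over all tested genes, and 58 of the 77 were negative, 75.3%, against 48.3% of all tested genes. By limma the median was -0.013, with 43 negative, against -0.011 over all tested genes. Leaving out 1 library at a time gave medians from -0.15 to -0.0077, and without CD11c+ replicates 1 and 2 and CD11c- replicate 1 the median was 0.035, with 30 of 78 tested members negative. The genes share libraries and moved together from library to library, so this count is not a count of independent differences. In bulk samples, fewer cells expressing a gene and less of its RNA per cell cannot be told apart.

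The precision of these data bounded most of the differences. For 68 of the 77 tested genes the 95% interval of the fold change lay within 1.5-fold in either direction, as it did for 29.3% of all tested genes. Among the 69 members averaging at least 50 CPM it did so for 67. Below that level the interval reached 1.5-fold for Ndufb4, Cycs, Cox7c, Atp5g1, Atp5l, Atp5s and Atp5sl, which averaged 2.34 to 34.7 CPM. All intervals of complexes II and III lay within the bound, the widest ones reaching 0.718-fold and 1.36-fold in complex III.

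**Figure D1:**
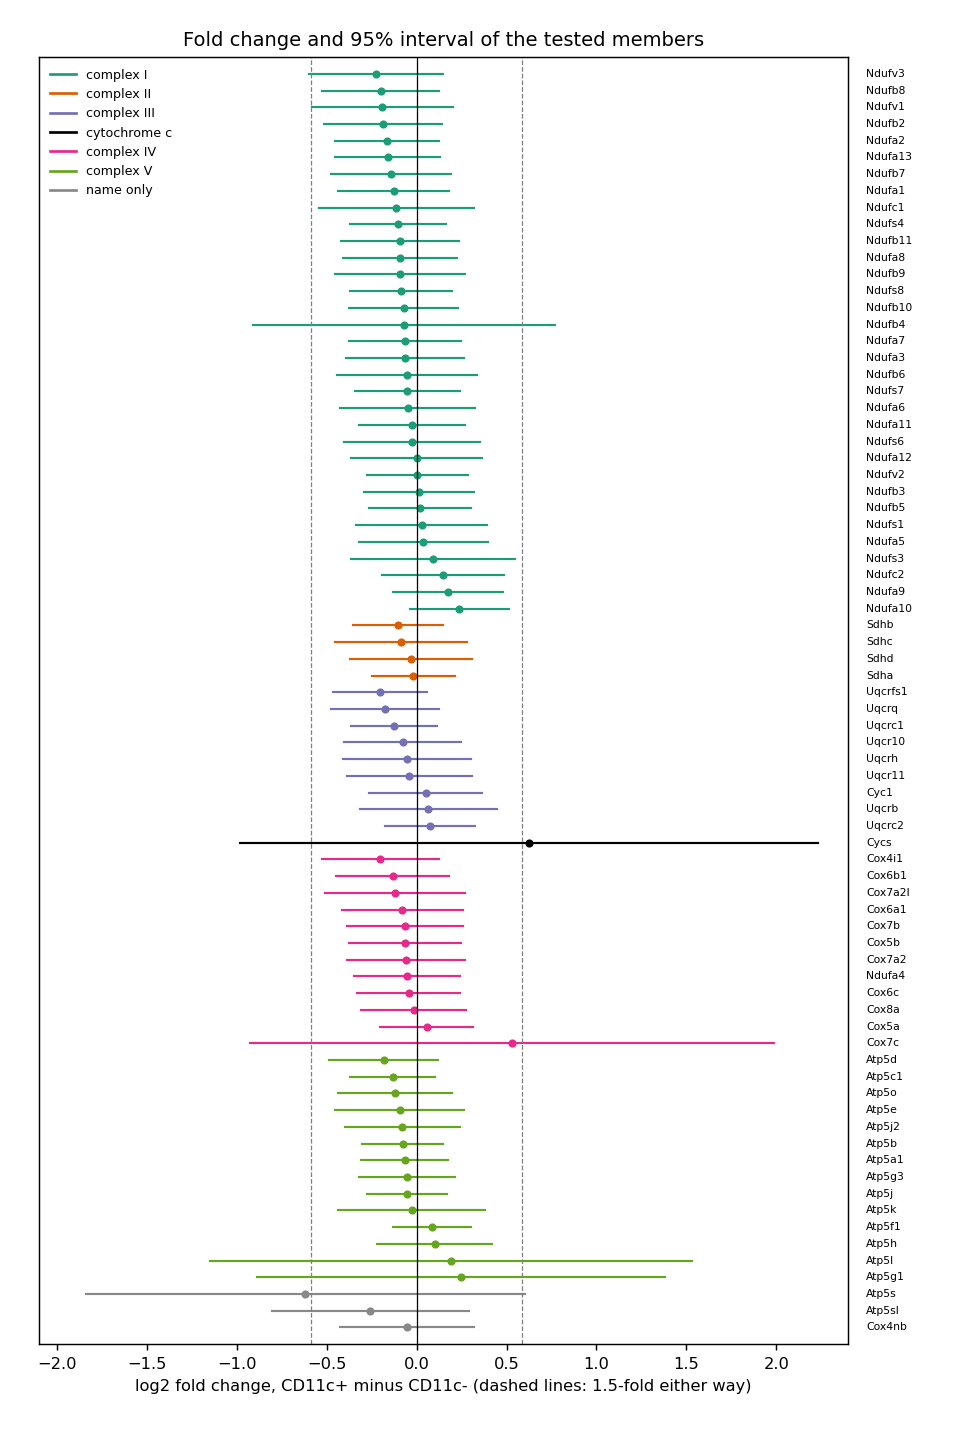
Log2 fold change, CD11c+ minus CD11c-, of 76 of the 77 tested members (points) with its 95% interval (lines), grouped and coloured by complex, with the gene symbol at the right and dashed lines at 1.5-fold either way. Most points sit just left of 0, and the long lines belong to Cycs, Cox7c, Atp5l, Atp5g1, Atp5s and Ndufb4, all at low levels.

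Complex I, the NADH dehydrogenase, had 34 tested genes, of which 25 were lower in CD11c+ libraries on average, with a median log2 fold change of -0.067 and none called. Its 7 core genes in the peripheral arm gave a median of -0.051, with 4 negative, and its 27 tested accessory genes gave -0.070, with 21 negative. Ndufv1, the subunit that binds NADH and flavin, stood at 204, 118, 195 and 194 CPM in CD11c+ libraries, against 241, 171, 185 and 215 CPM in CD11c- libraries. CD11c+ replicate 2 was well below every other library, and the other 3 CD11c+ libraries lay inside the range of the CD11c- libraries. The log2 fold change of Ndufv1 was -0.19 (standard error 0.18). Ndufs1, the largest iron-sulphur subunit of the electron input module, gave 135, 170.4, 96.6 and 145 CPM in CD11c+ libraries, against 124, 146, 132 and 133 CPM in CD11c- libraries. Here the highest and the lowest of the 8 libraries were both CD11c+, and the log2 fold change was 0.028. Ndufa10, an accessory subunit of the membrane arm, was the complex I gene with the largest positive difference. It had 213, 216, 193 and 219 CPM in CD11c+ libraries, against 154, 187, 166 and 207 CPM in CD11c- libraries. All CD11c+ values but that of replicate 3 were above every CD11c- value, and the log2 fold change was 0.24 with a standard error of 0.13 and an adjusted p of 0.991 by the same edgeR test. The complex I genes with the highest read counts were Ndufb7, an accessory subunit of the membrane arm, and Ndufa13, also known as GRIM-19. Ndufb7 averaged 318 ± 63.3 CPM in CD11c+ libraries and 351 ± 45.8 CPM in CD11c- libraries, and Ndufa13 averaged 306 ± 54.2 CPM in CD11c+ libraries and 342 ± 29.3 CPM in CD11c- libraries (SD, n = 4 each). Their log2 fold changes were -0.14 and -0.16, smaller than the spread between replicates.

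Complex II, succinate dehydrogenase, also serves as an enzyme of the citric acid cycle, and all 4 of its genes had negative log2 fold changes, from -0.10 to -0.018, with a median of -0.060 and none called. Sdha, the flavoprotein that oxidises succinate, stood at 502, 477, 403 and 499.9 CPM in CD11c+ libraries, against 451, 493, 450.3 and 511 CPM in CD11c- libraries. The lowest library was CD11c+ replicate 3 and the remaining CD11c+ values lay within the CD11c- range. Sdhb, the iron-sulphur subunit, had 503, 423, 527 and 558 CPM in CD11c+ libraries, against 502, 546, 499 and 614 CPM in CD11c- libraries. CD11c+ replicate 2 was the lowest and CD11c- replicate 4 the highest. Sdhc, a membrane anchor, had 127, 82.6, 122 and 129.7 CPM in CD11c+ libraries, against 141, 129.6, 111 and 108 CPM in CD11c- libraries. Again CD11c+ replicate 2 stood apart below the rest, and the other CD11c+ libraries overlapped the CD11c- libraries. Sdhd, the other anchor, averaged 192 ± 35.3 CPM in CD11c+ libraries and 197 ± 27.5 CPM in CD11c- libraries (SD, n = 4 each).

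Complex III, which passes electrons from quinol to cytochrome c, had 9 tested genes with a median log2 fold change of -0.054 and 6 negative values. Uqcrfs1, the Rieske iron-sulphur protein of its catalytic core, was the only member of the 77 whose 4 CD11c+ libraries were all below its 4 CD11c- libraries, which held for 1.85% of all tested genes. The values were 214.5, 185.3, 244.6 and 244.4 CPM in CD11c+ libraries, against 265.1, 245.1, 261.5 and 252.5 CPM in CD11c- libraries. The subsets met within 1 CPM, since CD11c+ replicates 3 and 4 and CD11c- replicate 2 were nearly the same. Uqcrfs1 averaged 222 ± 28.4 CPM in CD11c+ libraries and 256 ± 9.03 CPM in CD11c- libraries (SD, n = 4 each), with a log2 fold change of -0.20, a standard error of 0.12, and an adjusted p of 0.991 by edgeR's quasi-likelihood test. No member had all CD11c+ libraries above all CD11c- libraries, which held for 1.6% of all tested genes. Cyc1, the cytochrome c1 subunit, had 256, 313, 238 and 337 CPM in CD11c+ libraries, against 239.5, 286, 250.4 and 329 CPM in CD11c- libraries. The libraries of both subsets covered nearly the same range. Uqcrc1, a core protein, stood at 564, 629, 545 and 579 CPM in CD11c+ libraries, against 592, 608, 569 and 761 CPM in CD11c- libraries, with CD11c- replicate 4 above the others. The small subunit Uqcrq had a log2 fold change of -0.18, after Uqcrfs1 the largest in the complex, and averaged 197 ± 19.2 CPM in CD11c+ libraries and 222 ± 35.2 CPM in CD11c- libraries (SD, n = 4 each).

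Cycs, the soluble carrier cytochrome c, was counted at a very low level, with 138 reads over all 8 libraries. It had 2.54, 5.94, 4.81 and 1.25 CPM in CD11c+ libraries, against 0.928, 2.66, 2.45 and 3.35 CPM in CD11c- libraries. The ranges overlapped widely, and its log2 fold change of 0.62 had a 95% interval in fold terms from 0.506 to 4.69, so neither an equal level nor a several-fold difference was resolved at this depth.

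Complex IV, cytochrome c oxidase, had 12 tested genes, 10 of them with negative log2 fold changes, and a median of -0.063. Cox4i1, the general form of subunit IV, was counted most. It stood at 873, 599, 1014 and 829 CPM in CD11c+ libraries, against 908, 853, 899.5 and 1154 CPM in CD11c- libraries. CD11c+ replicate 2 was the lowest library and CD11c- replicate 4 the highest, and CD11c+ replicate 3 lay above the other 3 CD11c- libraries. Cox4i1 averaged 829 ± 172 CPM in CD11c+ libraries and 953 ± 136 CPM in CD11c- libraries (SD, n = 4 each), a log2 fold change of -0.20 with a standard error of 0.15. Cox5a, subunit Va, had 266, 308, 343 and 353 CPM in CD11c+ libraries, against 288, 317, 285 and 331 CPM in CD11c- libraries. Both subsets spanned nearly the same values, and the log2 fold change was 0.055. Cox6a1, the general form of subunit VIa, averaged 438 ± 89.4 CPM in CD11c+ libraries and 463 ± 72.2 CPM in CD11c- libraries, and Cox6b1, the general form of subunit VIb, averaged 441 ± 89.8 CPM in CD11c+ libraries and 483 ± 55.9 CPM in CD11c- libraries (SD, n = 4 each). Ndufa4, named for complex I and since placed in complex IV, averaged 335 ± 54.2 CPM in CD11c+ libraries and 348 ± 41.1 CPM in CD11c- libraries. Cox7a2l, a relative of subunit VIIa, had 92.5, 94.5, 144 and 82.3 CPM in CD11c+ libraries, against 121, 109.5, 113 and 107 CPM in CD11c- libraries. The single highest value and the 3 lowest were all in CD11c+ libraries.

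Complex V, the ATP synthase, had 14 tested genes, 10 of them negative, and a median log2 fold change of -0.061. The 5 genes of the catalytic F1 head and rotor were all negative, with a median of -0.095. The 4 genes of the peripheral stalk had 2 negative values and a median of 0.015, the 3 genes of the membrane part had 2, and the c ring had 1 of its 2 tested genes. Atp5b, the catalytic beta subunit, had more reads than any other member. It stood at 1964, 2389, 2239.7 and 2543 CPM in CD11c+ libraries, against 2145, 2593, 2170.0 and 2738 CPM in CD11c- libraries. The subsets overlapped, with the lowest library in CD11c+ and the highest in CD11c-. Atp5b averaged 2284 ± 247 CPM in CD11c+ libraries and 2411 ± 299 CPM in CD11c- libraries (SD, n = 4 each), a log2 fold change of -0.078 with an interval in fold terms from 0.81 to 1.11. Atp5a1, the alpha subunit of the same head, gave 1103, 1382, 1278 and 1399 CPM in CD11c+ libraries, against 1142, 1386, 1294 and 1582 CPM in CD11c- libraries. It followed nearly the same order of libraries as Atp5b, with replicates 1 lowest in both subsets. Atp5d, the delta subunit of the rotor, had the most negative value of complex V, -0.18, and stood at 429.5, 536, 633 and 655 CPM in CD11c+ libraries, against 587, 641, 584 and 749 CPM in CD11c- libraries. Atp5f1, the b subunit of the stalk, was the steadiest of all members. It had 298, 275, 309 and 314 CPM in CD11c+ libraries, against 289, 280.0, 281 and 278 CPM in CD11c- libraries, and its standard deviation within subsets was 0.062 on the log2 scale.

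Scores of whole complexes, the mean of log2(CPM + 1) over a complex's tested genes, differed less between the subsets than between replicates in complexes I to V. The complex I score was 7.06, 6.94, 7.30 and 7.19 in CD11c+ libraries, against 7.14, 7.18, 7.11 and 7.34 in CD11c- libraries. The subsets overlapped, the lowest library being CD11c+ replicate 2 and the highest CD11c- replicate 4. Complex II scored 8.07 ± 0.14 in CD11c+ libraries and 8.13 ± 0.10 in CD11c- libraries, and complex III 7.65 ± 0.11 in CD11c+ libraries and 7.71 ± 0.12 in CD11c- libraries (SD, n = 4 each). Complex IV scored 7.52, 7.34, 7.87 and 7.66 in CD11c+ libraries, against 7.63, 7.58, 7.60 and 7.77 in CD11c- libraries, so that the CD11c+ libraries held both its lowest and its highest value. Complex V scored 7.57, 7.58, 7.79 and 7.79 in CD11c+ libraries, against 7.64, 7.63, 7.65 and 7.91 in CD11c- libraries, where CD11c- replicate 4 stood above the other 3 CD11c- libraries, which lay close together. The differences, CD11c+ minus CD11c-, were -0.068 for complex I, -0.067 for II, -0.057 for III, -0.047 for IV and -0.021 for V. Over all 74 tested subunit genes the score was 7.35 ± 0.15 in CD11c+ libraries and 7.40 ± 0.11 in CD11c- libraries, a difference of -0.048. The single-gene score of Cycs differed by 0.40, within the spread of its libraries.

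**Figure D2:**
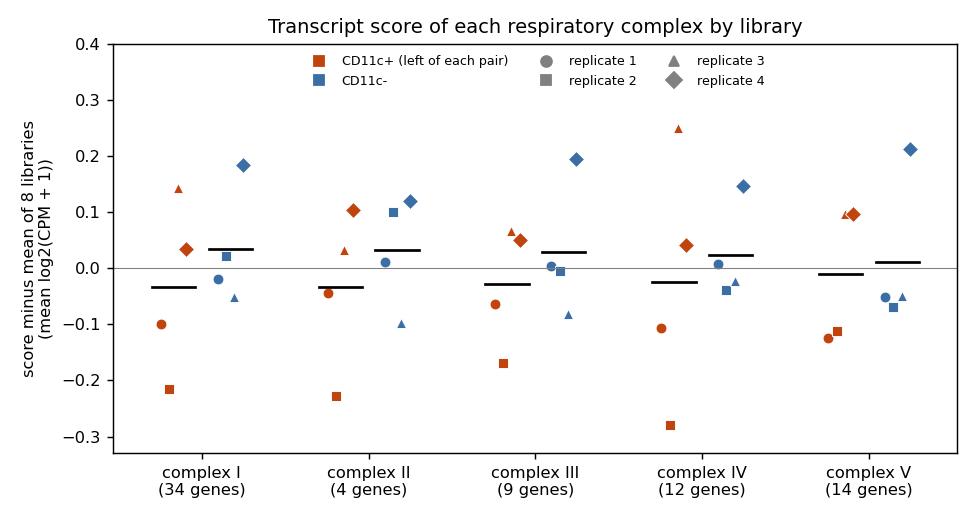
Score of each complex in each library, the mean log2(CPM + 1) of its tested genes, drawn relative to the mean of the 8 libraries. Colours mark CD11c+ (left of each pair) and CD11c- libraries, symbols the replicate number and black bars the subset means. In every complex the subsets overlap, with CD11c+ replicate 2 at or near the bottom and CD11c- replicate 4 high.

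The small negative balance was carried unevenly by the libraries. Of the 74 tested subunit genes, 36 had their lowest value in CD11c+ replicate 2 and 20 in CD11c+ replicate 1, whereas 36 had their highest value in CD11c- replicate 4 and 22 in CD11c+ replicate 3. Together the 87 members took 1.81, 1.78, 2.11 and 2.07% of gene reads in CD11c+ libraries, against 1.97, 2.02, 1.94 and 2.27% in CD11c- libraries. CD11c+ replicates 1 and 2 were the lowest libraries, and CD11c+ replicates 3 and 4 were above 3 of the 4 CD11c- libraries. The means were 1.94 ± 0.171% in CD11c+ libraries and 2.05 ± 0.153% in CD11c- libraries (SD, n = 4 each). The share of gene reads from ribosomal protein genes was also lowest in CD11c+ replicates 1 and 2, at 1.43% and 1.37%, and highest in CD11c- replicate 4, at 1.81%, with 1.79% in CD11c+ replicate 3. Without CD11c+ replicates 1 and 2 and CD11c- replicate 1, the 3 libraries poorest in detected genes, the score differences of complexes I to V were 0.037, 0.027, 0.022, 0.12 and 0.065, the opposite sign, as for the median of the members. The part of library quality in the negative balance was not tested, and the sign of the balance differed between these sets of libraries.

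**Figure D3:**
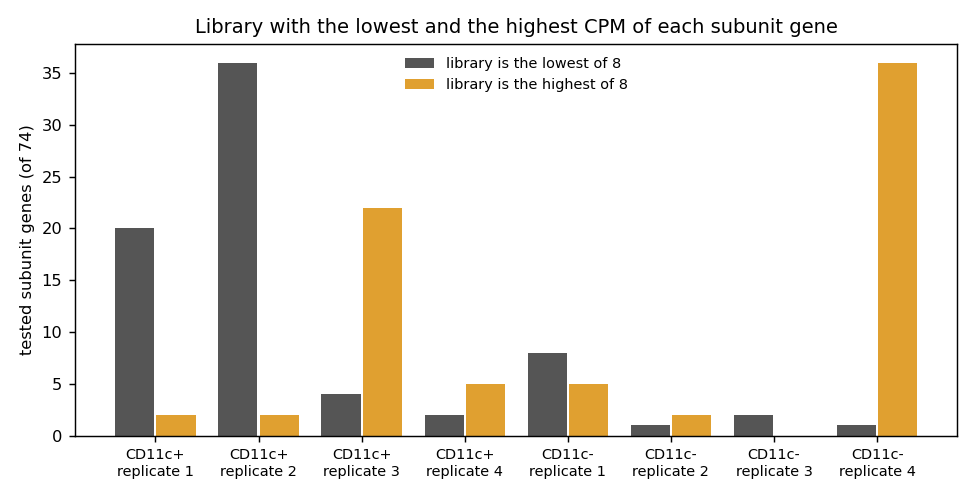
Number of the 74 tested subunit genes for which each library had the lowest (grey) or the highest (yellow) CPM of the 8 libraries. CD11c+ replicate 2 was lowest for 36 genes and CD11c- replicate 4 highest for 36, while CD11c+ replicate 3 was highest for 22.

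The median standard deviation of log2(CPM + 1) within subsets was 0.206 over the 77 tested members and 0.365 over all tested genes, which were lower in level, with a median of 36.6 CPM against 194 CPM for the members. At 50 CPM or more it was 0.198 over 69 members, with a median of 209 CPM, and 0.237 over 4155 genes, with a median of 107 CPM, so the members remained higher in level. Across transcript length the picture was similar. The 37 subunit genes with transcripts of 371 to 809 bases had a median log2 fold change of -0.054 and 29 negative values, and the 37 with transcripts of 838 to 3171 bases had -0.078 and 26. The 8 libraries spanned 0.42 in the score of the shorter transcripts and 0.31 in that of the longer ones.

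Tissue-restricted forms were at or near 0 in both subsets. Cox4i2, the lung and low-oxygen form of subunit IV, Cox7b2 and Cox8c, testis forms, Cox8b, a heart and muscle form, and Ndufa4l2, a relative of Ndufa4 induced by low oxygen, had no read in any library. Cox6a2, the heart and muscle form of subunit VIa, had 21 reads beside 20987 for Cox6a1, at most 0.274% of the pair in a CD11c+ library and 0.161% in a CD11c- library. Cox6b2, the testis form, had 63 reads beside 21445 for Cox6b1 and made up at most 0.442% of the pair in CD11c+ libraries and 0.415% in CD11c- libraries. Cox7a1, the heart and muscle form of subunit VIIa, had 45 reads beside 12392 for Cox7a2, with 3.32, 0.175, 0.891 and 0.156 CPM in CD11c+ libraries, against 1.49, 0, 0.752 and 1.59 CPM in CD11c- libraries. Its reads were unevenly spread over the libraries of both subsets and it was not tested.

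Some general subunits were counted far below the rest of their complexes, and several of these have transcripts that share sequence with other genes. The reads were 50 bases long, and alignments that were not unique were set apart from the gene counts, on average 52.0% of everything tallied in the count files. For each member the share of its 50-base transcript windows that occur in no other gene's transcripts was therefore computed from GENCODE vM21 on GRCm38. It was 0% for Atp5g2, 31.5% for Atp5l, 34.0% for Atp5g1, 47.0% for Cox7c, 49.5% for Atp5h, 56.8% for Uqcrb, 58.8% for Ndufs5, 63.0% for Ndufb4, 64.2% for Ndufs3 and 71.5% for Cycs, and higher for the others. A low share did not always go with a low count: Atp5h averaged 155 ± 30.1 CPM in CD11c+ libraries and 145 ± 7.42 CPM in CD11c- libraries, and Uqcrb averaged 56.9 ± 4.76 CPM in CD11c+ libraries and 54.3 ± 6.27 CPM in CD11c- libraries (SD, n = 4 each). Ndufb4 averaged 10.3 ± 3.06 CPM in CD11c+ libraries and 10.8 ± 2.11 CPM in CD11c- libraries. The level of Cycs, given above, was among the lowest, and its windows that are not unique are shared with 76 genes. Windows were compared with annotated transcripts only, so copies elsewhere in the genome were not counted and a unique window may still align to more than 1 place. Ndufs5, an accessory subunit of complex I, had no read in any library. BC002163, whose transcript shares windows with it, had 880 reads and averaged 16.7 ± 3.00 CPM in CD11c+ libraries and 21.0 ± 2.02 CPM in CD11c- libraries (SD, n = 4 each). Cox7c, subunit VIIc of cytochrome c oxidase, had 108 reads in all and stood at 3.32, 1.92, 3.21 and 2.65 CPM in CD11c+ libraries, against 2.04, 1.96, 1.88 and 1.76 CPM in CD11c- libraries. Both subsets overlapped, and the fold interval ran from 0.527 to 3.97. Atp5l, the g subunit of the ATP synthase, had 168 reads and averaged 3.94 ± 0.623 CPM in CD11c+ libraries and 3.45 ± 1.36 CPM in CD11c- libraries.

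The following 3 windows show what the shared stretches look like, each being the start of the coding sequence, with the start codon in capitals. The Cox7c window lies at chr13:86046626-86046675 on the minus strand of GRCm38 and also occurs in the transcript of Gm12338. The Ndufs5 window lies at chr4:123716030-123716079 on the minus strand and also occurs in BC002163. The Atp5l window lies at chr9:44920612-44920661 on the minus strand and also occurs in Atp5l2-ps and Gm10221.
Cox7c: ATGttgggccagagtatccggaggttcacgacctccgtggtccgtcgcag
Ndufs5: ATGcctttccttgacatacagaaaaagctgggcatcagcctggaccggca
Atp5l: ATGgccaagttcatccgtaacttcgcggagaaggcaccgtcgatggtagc
A 50-base read of any of these windows matches more than 1 gene, so the counts of these members are uncertain as levels, and whether their reads were lost in this way was not tested.

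**Figure D4:**
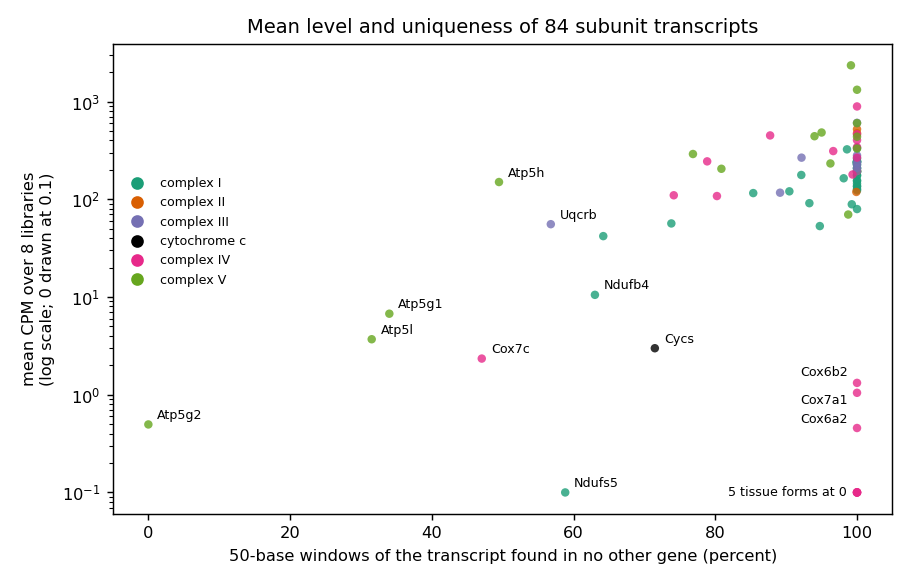
Mean CPM over the 8 libraries (log axis, 0 drawn at 0.1) of the 84 subunit and cytochrome c genes against the percentage of their 50-base transcript windows found in no other gene, coloured by complex. Genes at 34.0% or less lie under 10 CPM, and the genes at 0 with fully unique windows are tissue-restricted forms.

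Assigned reads were also set out per kilobase of unique window, in CPM per kilobase. The windows came from another genome build than the counts, so this ranks assigned reads and not strictly RNA levels. Over the 8 libraries the highest was Cox4i1 of complex IV, at 1191 ± 248 CPM per kilobase in CD11c+ libraries and 1370.0 ± 195 in CD11c- libraries (SD, n = 4 each), followed by Atp5b of complex V at 1234 ± 133 CPM per kilobase in CD11c+ libraries and 1303 ± 162 in CD11c- libraries and Atp5e, the epsilon subunit of the rotor, at 1136 ± 238 CPM per kilobase in CD11c+ libraries and 1213 ± 231 in CD11c- libraries. Atp5b was above Cox4i1 in CD11c+ libraries and below it in CD11c- libraries, and these neighbours overlapped within their spread. The next were the general complex IV forms Cox6a1 at 956 ± 195 CPM per kilobase in CD11c+ libraries and 1009.9 ± 158 in CD11c- libraries, Cox6b1 at 775 ± 158 CPM per kilobase in CD11c+ libraries and 849.7 ± 98.3 in CD11c- libraries and Cox8a at 799 ± 129 CPM per kilobase in CD11c+ libraries and 808 ± 95.7 in CD11c- libraries. Within complex I the highest was Ndufb7 at 554 ± 110.3 CPM per kilobase in CD11c+ libraries and 611 ± 79.8 in CD11c- libraries. The lowest core gene was Ndufs1 at 53.8 ± 12.1 CPM per kilobase in CD11c+ libraries and 52.8 ± 3.58 in CD11c- libraries. Core and accessory genes overlapped: over all libraries core Ndufs7 was at 294 CPM per kilobase, and accessory Ndufc1 and Ndufb4 were at 46.8 and 18.1. Within complex II, Sdhb stood highest at 460.1 ± 52.7 CPM per kilobase in CD11c+ libraries and 494 ± 49.2 in CD11c- libraries and Sdhc lowest at 37.0 ± 7.07 CPM per kilobase in CD11c+ libraries and 39.2 ± 4.96 in CD11c- libraries. Cox6b1 and Cox8a changed places between the subsets, and their spreads overlapped. Cycs was at 1.36 CPM per kilobase over all libraries, the lowest of the tested subunit genes. Part of its windows is shared with other genes, so its RNA level remains uncertain.

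The c ring of complex V is encoded by 3 genes whose mature proteins are the same, so their relative use is visible only in RNA. Atp5g3 carried nearly all assigned reads, 15375 over the 8 libraries, beside 316 for Atp5g1 and 23 for Atp5g2. It stood at 281, 287, 356 and 372 CPM in CD11c+ libraries, against 325, 323, 326 and 374 CPM in CD11c- libraries. CD11c+ replicates 1 and 2 were low, CD11c- replicate 4 was set off above the other CD11c- libraries, and CD11c+ replicate 4 reached nearly the same value. Atp5g1 made up 1.28 to 3.13% of the reads of Atp5g1 and Atp5g3 in CD11c+ libraries and 0.962 to 2.48% in CD11c- libraries, with overlapping ranges. Only 34.0% of the Atp5g1 windows and 0% of the Atp5g2 windows are unique, so the shares count only the reads that could be assigned to these genes.

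The genes around the complexes, from lists of assembly factors, carriers, citric acid cycle enzymes, regulators and antioxidant enzymes, held no gene that passed the test either. Together with Ndufab1, the complex I subunit outside the name rule, these lists held 112 genes, of which 107 were tested. Of these, 0 were called by edgeR's quasi-likelihood test, beside 0.0496% of all tested genes. Only 1 had an unadjusted p under 0.05 by that test, beside 4.7% of all tested genes. DESeq2 and limma also called 0 of the 107. DESeq2 gave an adjusted p to only 6947 of the 10073 tested genes, so it could not call every low-count gene among the 107. The 107 genes had 57 negative log2 fold changes and a median of -0.017. The 47 tested assembly factors had 23 negative values and a median of 0.0023, the 16 citric acid cycle genes had 8 and -0.0070, the 18 regulators and mitochondrial DNA expression genes had 9 and 0.00045, the 16 carriers had 10 and -0.045, and the 9 antioxidant genes had 7 and -0.14. The subunits of mitochondrial DNA, 13 in the list, matched no row by symbol and are not analysed here.

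Dlat, the acetyltransferase of the pyruvate dehydrogenase complex that feeds the citric acid cycle, was the gene with the unadjusted p under 0.05. It had 100.3, 89.6, 71.3 and 99.0 CPM in CD11c+ libraries, against 58.5, 63.7, 55.3 and 70.5 CPM in CD11c- libraries. Every CD11c+ library lay above every CD11c- library, which held for 1.6% of all tested genes. CD11c+ replicate 3 and CD11c- replicate 4 were close. Dlat averaged 90.0 ± 13.4 CPM in CD11c+ libraries and 62.0 ± 6.63 CPM in CD11c- libraries (SD, n = 4 each), a log2 fold change of 0.54 with a standard error of 0.17, an unadjusted p of 0.00797 and an adjusted p of 0.923 by the edgeR test, so it did not pass. Citrate synthase, Cs, averaged 496 ± 82.7 CPM in CD11c+ libraries and 459 ± 50.3 CPM in CD11c- libraries. Slc25a5, the ADP/ATP carrier that supplies complex V with its substrate, had a log2 fold change of -0.25 and averaged 445 ± 64.7 CPM in CD11c+ libraries and 528 ± 44.6 CPM in CD11c- libraries (SD, n = 4 each). Ucp2, an inner membrane carrier abundant in lymphocytes, averaged 2018 ± 89.2 CPM in CD11c+ libraries and 2046 ± 200.2 CPM in CD11c- libraries.

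None of the regulators of subunit transcription passed the test. Nrf1, which binds many subunit promoters, averaged 141 ± 12.8 CPM in CD11c+ libraries and 144 ± 19.9 CPM in CD11c- libraries, and Gabpa, an ETS factor also called NRF-2, averaged 107 ± 10.5 CPM in CD11c+ libraries and 95.2 ± 9.25 CPM in CD11c- libraries (SD, n = 4 each). Tfam, which packages mitochondrial DNA and takes part in its transcription, averaged 83.7 ± 14.5 CPM in CD11c+ libraries and 88.3 ± 6.06 CPM in CD11c- libraries. Esrra, the nuclear receptor ERR alpha, had 0.196, 4.89, 6.06 and 6.86 CPM in CD11c+ libraries, against 12.4, 7.56, 6.58 and 8.11 CPM in CD11c- libraries. CD11c+ replicate 1 was nearly without reads and the other libraries overlapped. The coactivator gene Ppargc1a had no read in any library, and Ppargc1b averaged 1.49 ± 1.73 CPM in CD11c+ libraries and 2.85 ± 2.02 CPM in CD11c- libraries.

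Promoter sequence was available for 67 of the 87 members, as the 250 bases before the transcription start in RefSeq on GRCm38.p6, and was searched on both strands for 4 short motifs. The NRF-1 motif, GCGC followed by any base and TGCGC, occurred in 13 of the 67, 19.4%. Among genes with promoter sequence it occurred in 10.4% of 7247 tested genes and 4.23% of all 27025. A gene counted if any of its promoters held the motif. The 67 include members that were not tested, such as Atp5g2 and Ndufs5, which both held this motif. The ETS motif CCGGAAG occurred in 12, 17.9%, against 18.1% of tested genes and 7.83% of all genes with promoter sequence. The ERR motif CAAGGTCA occurred in 3, the untested Ndufs5 among them, 4.48%, against 1.19% of tested genes. The YY1 motif AAGATGGC occurred in 1, 1.49%, against 2.59% of tested genes. No search result says whether a factor binds there. The following stretches show the NRF-1 match in capitals for 1 member of each of 4 complexes. Each is the member with the highest mean CPM among those of its complex with a match, and no searched complex III gene had a match. In Sdha and Atp5c1 the motif lies on the opposite strand, so the capitals show its reverse complement. Ndufa11, an accessory subunit of complex I, is shown at chr17:56717677-56717736 on the plus strand, and Sdha of complex II at chr13:74350304-74350363 on the minus strand. Cox6a1 of complex IV is shown at chr5:115349086-115349145 on the minus strand, and Atp5c1, the rotor shaft of complex V, at chr2:10080433-10080492 on the minus strand.
Ndufa11: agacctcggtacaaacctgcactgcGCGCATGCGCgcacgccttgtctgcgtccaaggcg
Sdha: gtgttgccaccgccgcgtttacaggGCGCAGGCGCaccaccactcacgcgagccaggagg
Cox6a1: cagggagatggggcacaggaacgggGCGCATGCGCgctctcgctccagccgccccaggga
Atp5c1: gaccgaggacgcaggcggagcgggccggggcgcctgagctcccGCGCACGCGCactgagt
The matches start 60, 98, 162 and 17 bases before the annotated start. These 4 genes had log2 fold changes of -0.026 for Ndufa11, -0.018 for Sdha, -0.079 for Cox6a1 and -0.13 for Atp5c1, and none passed the test.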

How the data were processed

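The data were 8 RNA-seq libraries of liver CD8 T cells, 4 CD11c+ and 4 CD11c-, made with a modified SMART-seq2 protocol with 10 to 12 preamplification cycles and read as 50-base single reads, per the labels' protocols. The deposited values are raw read counts per gene; the authors made them with bcl2fastq, TopHat2 2.0.8b, HTSeq and genome build mm9, per the submitters' processing notes. Neither the gene annotation nor the strand setting is stated in the sources used, so reads of overlapping antisense genes cannot be told apart. The 5 HTSeq summary rows were left out of library sizes and tests. Among reads with a unique alignment, the row for no annotated feature held 65.1% on average.

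Low counts were filtered with filterByExpr, libraries were scaled by TMM, and CD11c+ was compared with CD11c- by the quasi-likelihood test of edgeR 4.0.16 under R 4.3.3. The p-values were adjusted by Benjamini-Hochberg across the 10073 genes that passed, and the script was checked on simulated data. There it called 11 of 221 genes changed 1.5-fold, 4.98%, and 38.9% of those changed 2-fold. The changed genes were drawn from all tested genes, so a difference of that size would often go uncalled. Intervals of 95% came from the log2 fold change and its standard error. Scores average log2(CPM + 1) over tested genes. Members were named when they had an unadjusted p under 0.05, were among the 2 largest differences or the 2 highest means of their complex, had paralogs, were core subunits or failed the filter. Genes outside that rule that are given by value, such as Sdhd, Atp5d, Atp5e, Atp5f1, Cs, Slc25a5 and Ucp2, were chosen after their values were seen. 1 member, which was tested and is included in the counts, is not reported here. The members and lists were chosen with earlier results of these data known. Alternatives were RLE factors, no scaling, other filters, a replicate block, DESeq2 1.42.0, limma 3.58.1 with voom quality weights, edgeR's legacy=FALSE, a pseudocount of 0.5, a threshold of 0.01 and libraries left out. Of the pairs of libraries within a subset, none agreed within sampling noise, the lowest chi-square per degree of freedom being 9.43. Shared 50-base windows came from GENCODE vM21 on GRCm38 and promoters from RefSeq on GRCm38.p6, neither being the build of the count files.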

Additional observations from a re-analysis of the deposited data

Results flagged for a closer look

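Among 78 sets of 4 libraries examined, 4 held 1 library set apart from the other 3 by more than the critical ratio of Dixon's test at 95%, and chance flags about 1 in 20 such sets. The complex V score was 7.91 in CD11c- replicate 4, against 7.63 to 7.65 in the other CD11c- libraries. Atp5g3, the main gene for the c ring of the ATP synthase, stood at 374 CPM in the same library, against 323 to 326 CPM in the others. Ndufv1, the NADH-binding subunit of complex I, stood at 118 CPM in CD11c+ replicate 2, against 194 to 204 CPM in the other CD11c+ libraries. Sdhc, a membrane anchor of complex II, stood at 82.6 CPM in CD11c+ replicate 2, against 122 to 129.7 CPM in the others. Each of these 2 libraries also held the lowest or the highest value of 36 of the 74 tested subunit genes.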

How the results depend on the processing

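No member was called under any of the 17 other settings. The count of all genes called, 5 by edgeR, was 12 with no filter on low counts, 8 with at least 5 CPM in 4 libraries, 32 by DESeq2, 19 by limma with voom quality weights, 11 with legacy=FALSE, 11 without the 3 libraries poorest in detected genes, 1 at a threshold of 0.01 and 1 to 5 with 1 library left out; the cause was not tested. Leaving out 1 library at a time gave member medians of -0.15 to -0.0077 on the log2 scale, and score differences that crossed 0 for complex IV, from -0.14 to 0.038, complex V, from -0.057 to 0.046, and all subunit genes together, from -0.10 to 0.0057. Of 490 log2 fold changes of the 29 named members under these settings, 46 changed sign, in 20 members, none of them called. Under limma with voom quality weights, 43 of the 77 members were negative, against 58 by edgeR, and Cycs had -0.20. Uqcrfs1 had -0.058 without the 3 libraries poorest in detected genes.

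The labels number the replicates 1 to 4 in both subsets but do not say what a number shares. Same-numbered libraries deviated together weakly, with correlations of 0.0965, 0.167, 0.119 and 0.190, and every library correlated best with its own number, as a hint from the data; the numbers were not taken to pair the libraries. With the replicate number as a block, 13 of all tested genes and 0 members were called, and the member median was -0.076. Counts of a few reads limit Cycs, Cox7c, Atp5l and Atp5g1, and intervals cover the spread between these libraries only.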
